A study of Mus musculus with 6 samples.

Results

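The transcript levels of the proximal forelimb bud of mouse embryos at E10.5 were compared between 1 array labelled Ring1A/B-dKO (dKO) and 1 array labelled control. These are 2 of the 6 one-colour Affymetrix arrays of the study, and they were taken by their titles. The dKO embryos carried the genotype Prx1-Cre; Ring1A-/-; Ring1Bfl/fl on a CD1 background and received no retinoic acid. The control embryos, also CD1 and without retinoic acid, are described as WT but carry the genotype label Ring1A-/-. By these genotype labels both groups lack Ring1A, and the dKO differs from the control in Ring1B and in the Cre. The distal dKO and distal control arrays, from the other part of buds of the same age and genotypes, were used to see which differences were larger proximally. The remaining 2 arrays, from proximal and distal buds of wild type CD1 embryos given 100 mg/kg all-trans retinoic acid (RA) at E10.25 and collected at E10.5, served to choose a probe set for each gene and to read Ring1. Prx1-Cre is a transgene active in the mesenchyme of the early limb bud, so ectoderm, blood and vessel cells in the dissected tissue are not expected to be recombined. With 1 array a group no difference has a replicate check, no p-value is given, and "higher" and "lower" describe these 2 arrays only.

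RING1A (gene Ring1) and RING1B (gene Rnf2) are interchangeable catalytic subunits of PRC1, a Polycomb complex that places ubiquitin on histone H2A. PRC1 and its partner complex PRC2, which methylates histone H3, keep silent the genes of developmental regulators that a tissue does not use, many of them with CpG-rich promoters. In the limb bud the best known Polycomb targets are the Hox genes, which are switched on in order along their clusters. The proximal bud forms the girdle and the upper limb and borders the body wall, while the distal bud lies under the apical ectodermal ridge and forms the hand.

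Signals are MAS5 values on a linear scale, and each array's median, 73.0 on the proximal dKO array and 64.0 on the proximal control array, was used as a floor. A gene below the floor was treated as not measured there, so a difference that ends at a floor is a bound and is written with "at least". Of 18194 genes, 11387 were above the floor on the proximal dKO array and 11049 on the proximal control array, and 11594 were above it on at least 1 of them. Dim signals were brighter on the dKO array: the 25th percentile was 15.3 there and 11.7 on the control array. The 3' to 5' ratios of the Gapdh and actin control probe sets, a sign of RNA quality, were 1.35 and 1.72 on the proximal dKO array and 1.39 and 1.69 on the proximal control array.

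The targeted genes do not check the labels here. Ring1 had a signal of 402 on the proximal dKO array and 624 on the proximal control array, and 578 and 968 on the distal dKO and distal control arrays. On the wild type RA arrays it was 419.8 proximally and 245 distally, so the signals of the 4 arrays labelled Ring1A-/- overlapped those of the 2 arrays labelled WT, or lay above them. Rnf2 had 2147 on the proximal dKO array and 2042 on the proximal control array, and a second probe set had 1159.9 and 1015. The positions of these probe sets against the deleted exons were not analysed here. A probe set outside the deleted part would keep its signal and checks nothing. The defining genes of limb mesenchyme were bright and alike on both proximal arrays: Prrx1 had 6621 and 6876, and Twist1 2769 and 2653, on the dKO and control arrays. None of the 12 limb mesenchyme genes was 2-fold apart, with a median log2 difference of -0.07.

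Since PRC1 is known to bind promoters dense in CpG, the promoter windows of 5 genes that the results turn on are given here, with each CpG in capitals. Each window runs from 250 bases before to 50 bases after the start of the gene, 300 bases in all, and is taken from RefSeq on GRCm38.p6. The first belongs to Zic1, the gene with the largest difference. The next is of Aldh1a2, higher in the proximal dKO, whose distal difference was not measured. The others are of Hoxd13 (higher in the proximal dKO), Tbx18 and Pax1 (lower), whose distal differences had the other sign. The Zic1 window is chr9:91365719-91366018 on the minus strand, that of Aldh1a2 is chr9:71215539-71215838 on the plus strand, that of Hoxd13 is chr2:74667975-74668274 on the plus strand, that of Tbx18 is chr9:87731211-87731510 on the minus strand and that of Pax1 is chr2:147364744-147365043 on the plus strand.
Zic1: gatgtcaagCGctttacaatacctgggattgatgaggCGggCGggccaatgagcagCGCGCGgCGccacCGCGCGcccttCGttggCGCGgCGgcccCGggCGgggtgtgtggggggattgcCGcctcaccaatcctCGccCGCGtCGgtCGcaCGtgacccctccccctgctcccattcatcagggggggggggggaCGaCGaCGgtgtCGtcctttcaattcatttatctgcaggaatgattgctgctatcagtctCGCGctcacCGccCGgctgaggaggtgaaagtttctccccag
Aldh1a2: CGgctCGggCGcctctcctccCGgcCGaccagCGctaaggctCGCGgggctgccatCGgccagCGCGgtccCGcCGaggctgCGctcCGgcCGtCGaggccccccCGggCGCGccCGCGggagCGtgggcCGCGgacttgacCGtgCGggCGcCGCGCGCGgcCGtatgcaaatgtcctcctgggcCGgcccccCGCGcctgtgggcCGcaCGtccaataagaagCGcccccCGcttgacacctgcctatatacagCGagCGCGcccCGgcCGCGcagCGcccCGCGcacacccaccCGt
Hoxd13: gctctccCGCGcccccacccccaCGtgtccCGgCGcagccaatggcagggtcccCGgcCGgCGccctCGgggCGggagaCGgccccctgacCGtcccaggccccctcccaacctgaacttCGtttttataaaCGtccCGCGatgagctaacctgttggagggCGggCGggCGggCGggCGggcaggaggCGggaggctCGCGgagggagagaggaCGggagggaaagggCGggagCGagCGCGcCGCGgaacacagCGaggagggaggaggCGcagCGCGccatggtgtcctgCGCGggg
Tbx18: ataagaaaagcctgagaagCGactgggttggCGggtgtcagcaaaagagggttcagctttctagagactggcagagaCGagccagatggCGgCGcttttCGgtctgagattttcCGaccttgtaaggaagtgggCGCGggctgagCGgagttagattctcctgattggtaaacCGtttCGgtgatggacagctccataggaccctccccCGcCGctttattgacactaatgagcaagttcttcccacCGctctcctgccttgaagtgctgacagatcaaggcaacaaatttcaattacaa
Pax1: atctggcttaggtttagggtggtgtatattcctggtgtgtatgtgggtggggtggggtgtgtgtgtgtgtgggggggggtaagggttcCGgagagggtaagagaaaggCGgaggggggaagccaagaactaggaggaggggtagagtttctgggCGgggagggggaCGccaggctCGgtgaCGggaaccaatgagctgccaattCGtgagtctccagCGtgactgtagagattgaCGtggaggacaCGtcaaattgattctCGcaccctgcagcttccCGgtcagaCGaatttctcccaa

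The Aldh1a2 window holds 50 CpG, that of Hoxd13 37 and that of Zic1 31, against 15 in that of Tbx18 and 13 in that of Pax1. The motif searched was CG, which reads the same on both strands. The median over all 32851 RefSeq windows is 7, and 94.6% of windows hold at least 1 CpG. As many CpG as in the Aldh1a2 window are found in 0.855% of windows, as many as in the Hoxd13 window in 5.58%, and as many as in the Zic1 window in 10.6%, while the share is 34.6% for Tbx18 and 37.9% for Pax1. This is a description of 5 windows, of genes chosen after their values were seen. A RefSeq window was found for 334 (70.0%) of the 477 higher genes described next, under the 80% set as a minimum. Gene sets were therefore not compared by promoter sequence.

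Most differences in the proximal bud were toward higher signal in the dKO. Of 11594 genes, 477 (4.11%) were 2-fold or more higher on the dKO array and 43 (0.371%) were 2-fold or more lower. The median log2 difference over all genes was 0.02. Of the higher genes, 66 were 4-fold or more higher and 10 were 8-fold or more, and 7 of the lower genes were 4-fold or more lower. The control was above its floor for 311 of the higher genes, which is 2.81% of the 11049 genes above it there. For the other 166 the control was at or below its floor and the dKO above its own. The floor is the array median and not a detection limit, and some of these controls lay just under it, such as St8sia3 at 59.4. They are 30.5% of the 545 genes measured only on the dKO array, a share that the floor itself raises, since such a gene entered only by being high in the dKO.

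**Figure D1:**
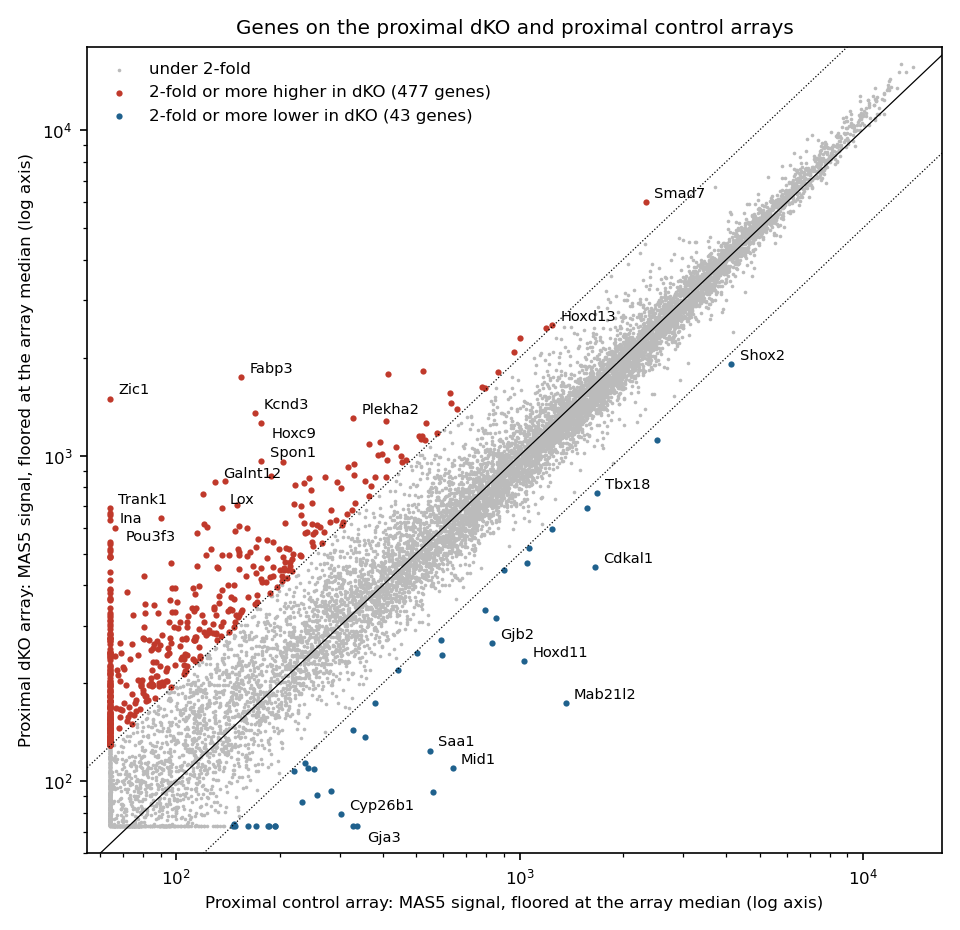
Each point is a gene, with its MAS5 signal on the proximal control array (x axis) and on the proximal dKO array (y axis), both floored at the array median and on log axes; dotted lines mark 2-fold. The 477 higher genes lie mostly at signals under 1000 in the control, and 166 of them sit on the control's floor at the left edge, while the 43 lower genes are fewer and lie below the diagonal.

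The differences lay among dim and middling genes. Over the 10842 genes above the floor on both arrays, the 5th and 95th percentiles of the log2 difference were -0.38 and 0.77. Of the 2022 with a mean signal under 250, 178 (8.80%) were higher and 12 (0.593%) lower, whereas none of the 1011 genes with a mean signal of 4000 or over was 2-fold apart. Other probe sets of the same gene gave only a partial check within the arrays. Of the higher genes 144 have other measured probe sets, and 188 of these 190 differed in the same direction. By 2-fold or more 80 (42.1%) did, and none by 2-fold the other way. Over all genes, 3805 of 8863 other probe sets were higher, and 1.59% were 2-fold higher. A probe set at the floor in the control was measured only through the dKO array, so its direction was fixed in advance. The unequal floors can also turn the sign of a dim probe set. For the lower genes 13 of 15 other probe sets differed in the same direction and 6 by 2-fold or more.

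The 8-fold or larger differences include genes of transcription factors best known from other organs. Zic1, a zinc finger factor of the dorsal neural tube and the somites, had a signal of 1497 on the proximal dKO array and 20.1, below the floor, on the proximal control array, at least 23.4-fold higher. Its second probe set read 526 and 6.14 on the same arrays. Pou3f3, a POU factor of the brain and kidney, had 599 in the dKO and 66.2 in the control, 9.04-fold higher. Onecut2, a factor of liver and motor neurons, had 535 and 37.5 (at least 8.37-fold), and Foxl2os, the transcript opposite the ovary factor gene Foxl2, had 659 and 35.2 (a log2 difference of at least 3.36). For each of them the distal arrays gave a difference of like size, with distal log2 values of at least 5.12 for Zic1, 3.24 for Pou3f3, at least 3.07 for Onecut2 and at least 3.62 for Foxl2os.

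Of a list of 82 developmental regulators of other organs, 14 were above the floor in the proximal control, and 4 of these were 2-fold or more higher in the dKO, against 2.81% of all genes above the floor there. Their median log2 difference was 0.36. The 4 were Pou3f3, Gata2, Dmrta2 and Pou4f1, named because they are so few. A further 28 were measured on the dKO array alone, and 20 of these were higher, against 30.5% of all genes measured that way. Those 28 entered by being high in the dKO, so their count is a description. None of the 42 measured was 2-fold lower. Next to Zic1 and Pou3f3 by size came Pax6, the eye and forebrain factor, at a log2 difference of at least 2.49, and Isl1, a factor of motor neurons and hindlimb, at least 2.25. Zic2 (-0.35) and Zic5 (-0.63), close relatives of Zic1, did not share its difference. Of the whole list 24 were higher as reported, but 9 with the floor at 2 times the array median, 12 with a fixed floor of 100 and 14 with probe sets averaged.

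Some families were listed after the values were seen, and their counts describe only these arrays, on which 4.11% of all genes were higher. Among 6 measured GATA factors, regulators of blood, heart and gut, 5 were 2-fold or more higher: Gata2 had 944 in the dKO and 329 in the control, Gata3 183 and 48.3, and Gata4 170.3 and 20.4, the last 2 from a control below the floor. Gata5 (138 and 53.4) and Gata6 (129 and 19.6) were only just past the threshold, at log2 differences of at least 1.11 and 1.01. Among 7 measured POU factors 5 were higher, including Pou6f1 (393 in the dKO and 99.0 in the control) and Pou3f2 (219 and 44.6). Among 9 LIM homeobox factors 4 were higher, all from controls at the floor, while Lhx2 and Lhx9, which the limb bud itself uses, were at -0.04 and -0.81. Above the floor in the control, 1 of 2 GATA, 4 of 5 POU and 0 of 3 LIM homeobox factors were higher, against 2.81% of all such genes. Of those measured on the dKO array alone, 4 of 4, 1 of 2 and 4 of 6 were higher, against 30.5%. The latter entered only by being high in the dKO. The counts depend on the processing: 3 GATA factors were higher with arrays divided by their medians or quantile normalized, 2 with probe sets averaged and 1 with the floor doubled or fixed at 100. With probe sets averaged 2 POU factors were higher, and with the floor doubled 1 LIM homeobox factor was.

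In the HoxB and HoxC clusters the genes that were higher lay toward the posterior end: 2 of 8 measured HoxB genes and 3 of 7 HoxC genes. Over all genes 4.11% were higher. Of those above the floor in the control, 1 of 7 HoxB and 2 of 5 HoxC genes were higher, against 2.81% of all such genes. Hoxb9 had 644 on the proximal dKO array and 90.5 on the proximal control array, 7.12-fold higher, and Hoxb13 had 244 and 3.30 (at least 3.82-fold). In the HoxC cluster, Hoxc8 had 1781 and 414, Hoxc9 1259 and 176, and Hoxc10 543 and 36.7 on the same arrays, so that 3 neighbouring genes were all 4-fold or more higher. Hoxc13, at the very end of the cluster, had 117 and 40.8, at least 1.82-fold higher. The more anterior members were not 2-fold higher proximally: Hoxb3 (0.52), Hoxb4 (-0.13), Hoxb5 (-0.45), Hoxb6 (0.51), Hoxc4 (-0.19) and Hoxc6 (0.61) stayed under the threshold. On the distal arrays the same 6 genes had log2 differences of 2.64, 1.56, 1.90, at least 2.43, 1.66 and at least 1.21. Their proximal control signals, 1179 for Hoxb3 and 1699 for Hoxb5, were already well above their distal control signals of 179 and 226. None of the 8 measured HoxA genes was 2-fold apart proximally, with a median of -0.16. The HoxD cluster did not share the posterior order. Of its 7 measured genes Hoxd1, at the anterior end, was higher (184 and 27.4, at least 2.88-fold), as was Hoxd13, and Hoxd11 was lower. The transcript Hoxb5os, from the more anterior part of the HoxB cluster, was also higher, at 2306 and 1005.

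Several of the genes with the largest differences code for proteins of neurons. Not all genes of neurons were higher: Dcx had 468 in the proximal dKO and 1049 in the proximal control, and Gng3 174 and 379. A second probe set of Dcx read 306 and 996. Ina, an intermediate filament protein of neurons, had 632 in the proximal dKO and 43.8 in the proximal control (at least 9.88-fold), and the neurofilament genes Nefl (709 and 220.1) and Nefm (221 and 70.6) were 3.22-fold and 3.14-fold higher. Dab1, the adaptor of reelin signalling in migrating neurons, had 764 and 119.5, and all 4 of its other probe sets were 2-fold or more higher too. St8sia3, a sialyltransferase of the brain, had 665 and 59.4, and Eno2, the neuronal enolase, 616 and 121. Trank1, which was at least 10.8-fold higher, had 690.3 and 13.7. Nefl and Nefm are also markers of nerve fibres. Of the 11 neural and Schwann markers, 10 had a higher signal in the dKO, a count that includes markers below the floor. Dim signals were brighter on the whole dKO array. Of the 7 measured Isl1, Nefl and Nefm were 2-fold higher, against 4.11% of all genes. Above the floor in the control 2 of 6 were, against 2.81% of all such genes. Tubb3, the tubulin of neurons, was at 139 and 95.8, and the Schwann cell factor Sox10 was below the floor on both arrays, at 24.3 and 15.7. The summed signal of the 11 neural and Schwann markers was 2311 in the dKO and 1154 in the control, and the part of nerve cells in these differences was not tested.

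Ion channel genes also held higher members. Kcnd3, a potassium channel of heart and brain, had 1351 on the dKO array and 169.8 on the control array, 7.96-fold higher. Of the 15 potassium channel genes above the floor in the control 4 were higher, and of the 8 such calcium channel genes 1 was, against 2.81% of all such genes. Of those measured on the dKO array alone, 3 of 9 and 3 of 6 were higher, against 30.5% of all genes measured that way. Among the higher calcium channel genes were Cacna1d (325 and 59.9) and Cacng4 (328 and 80.9). These lists were also made after the values were seen, and the total of 7 potassium channel genes was 3 with the floor doubled and 4 with it fixed at 100, and that of 4 calcium channel genes was 2 with probe sets averaged.

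Other large differences were in genes of metabolic, secreted and matrix proteins, named here for their size. Fabp3, the fatty acid binding protein of heart and muscle, had the largest difference with both arrays above the floor, at 1746 in the dKO and 155 in the control, 11.3-fold higher. Galnt12, which starts mucin-type glycosylation, had 831 and 129.6, and Kdelr3, a receptor that returns proteins to the endoplasmic reticulum, had 835 and 139. Spon1, a matrix protein of the floor plate, had 965 and 177, and the WNT agonist Rspo1 had 515 and 54.4 (at least 8.05-fold). Lox, the enzyme that cross-links collagen and elastin, had 691 and 136, and its relatives Loxl1 (196 and 54.1) and Loxl3 (271 and 113) were also 2-fold or more higher. The collagens and matrix proteins themselves mostly did not reach 2-fold: of 19 measured, Postn (386 and 38.5), Lox and Col14a1 (202 and 30.8) did, and the median was 0.25. Over all genes 4.11% were higher. Above the floor in the control 1 of 16 was, against 2.81% of all such genes.

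Genes of antigen presentation and of the sensing of foreign nucleic acid were listed after the values were seen. Of the 31 above the floor in the control, 9 were 2-fold or more higher in the proximal dKO, against 2.81% of all such genes, with a median log2 difference of 0.27. With Cgas, measured on the dKO array alone, 10 of 33 were higher and none lower. Cgas, the cytosolic DNA sensor, had 489 and 37.5 (at least 7.65-fold), Parp12 586 and 149, Zc3hav1, an antiviral protein that binds RNA, 821 and 235, and the pair Dtx3l and Parp9, which act as 1 complex, 1278 and 407, and 168 and 66.8. Tap1, the peptide transporter, had 158 and 68.6. The central interferon response genes differed less or the other way: Irf9 was at -0.18, Stat2 at -0.32, Ifit2 at -0.06 and B2m at 0.42. The H2 genes of this list, such as H2-K1 (373 and 172), are close copies of each other, so their probe sets may share signal. The count of 10 was 5 with probe sets averaged, 6 with log2(signal + 50) and 7 with the floor doubled. Ptprc, the pan-leukocyte marker, was below the floor on both arrays (46.5 and 37.5).

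Some higher genes were next to each other on the chromosome. Of the 477, 53 (11.1%) had a neighbour on the array that was also 2-fold or more higher, against 588 (5.08%) of 11574 measured genes with a known position, a difference that was not tested. The 27 adjacent pairs include Pou3f3 with the noncoding Pantr1 (493 in the dKO, 34.7 in the control), Nefl with Nefm, Foxl2 with Foxl2os, Dtx3l with Parp9, Fez1 with Pknox2, and Hoxc8 with Hoxc9 and Hoxc10. Neighbours that share a promoter or overlap can also share a measurement.

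The lower genes were led by Mab21l2, a gene of eye, body wall and limb development, with 174 on the proximal dKO array and 1363 on the proximal control array, 7.84-fold lower in the dKO. Mid1, a microtubule-associated ubiquitin ligase, had 109.6 and 638, and Hoxd11, which patterns the forearm, 233 and 1032. Cyp26b1, the enzyme that breaks down RA in the limb bud, had 79.3 in the dKO and 302 in the control. Saa1 and Saa2, acute phase proteins with near-identical sequences, had 124 and 549, and 63.7 and 326, and Gja3, a gap junction protein, 66.2 and 336 (at least 4.61-fold lower). Cdkal1, which modifies transfer RNA, had 454 and 1661. All of these were also 2-fold or more lower on the distal dKO array than on the distal control array. The WNT agonist Rspo3 (335 and 792) was lower while its relative Rspo1 was higher.

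The proximal and distal comparisons use different arrays, and the distal one had 628 higher genes (5.39%) and 61 lower (0.523%) of 11657. In both parts 338 genes were higher, 70.9% of the proximal and 53.8% of the distal higher genes, and 21 were lower, 48.8% and 34.4%. Genes whose proximal difference stood apart were taken as those 2-fold or more proximally with a log2 difference at least 1 larger than distally. There were 36 such higher genes (0.311% of 11594) and 15 lower ones (0.129%). For 152 more higher genes and 2 lower ones the distal difference was itself a bound in the same direction, so the gap is not known. Of the 36, 24 had a measured distal difference. The other 12 were at the floor on both distal arrays, which was counted as a distal difference of 0, so for them no gap was measured. The same is true of 1 of the 15 lower genes. The proximal control was at its floor for 17 of the 36. The same rule turned round gave 82 genes higher distally (0.703% of 11657) and 21 lower (0.18%), but 43 and 63 with arrays divided by their medians, 52 and 33 with quantile normalization and 45 and 11 with the floor doubled. Other probe sets were few, and the floors limit what their direction shows, as above. For the higher genes that stood apart all 9 measured ones differed proximally in the same direction, 3 by 2-fold or more. For the lower ones 6 of 8 did, 1 by 2-fold (12.5%).

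**Figure D2:**
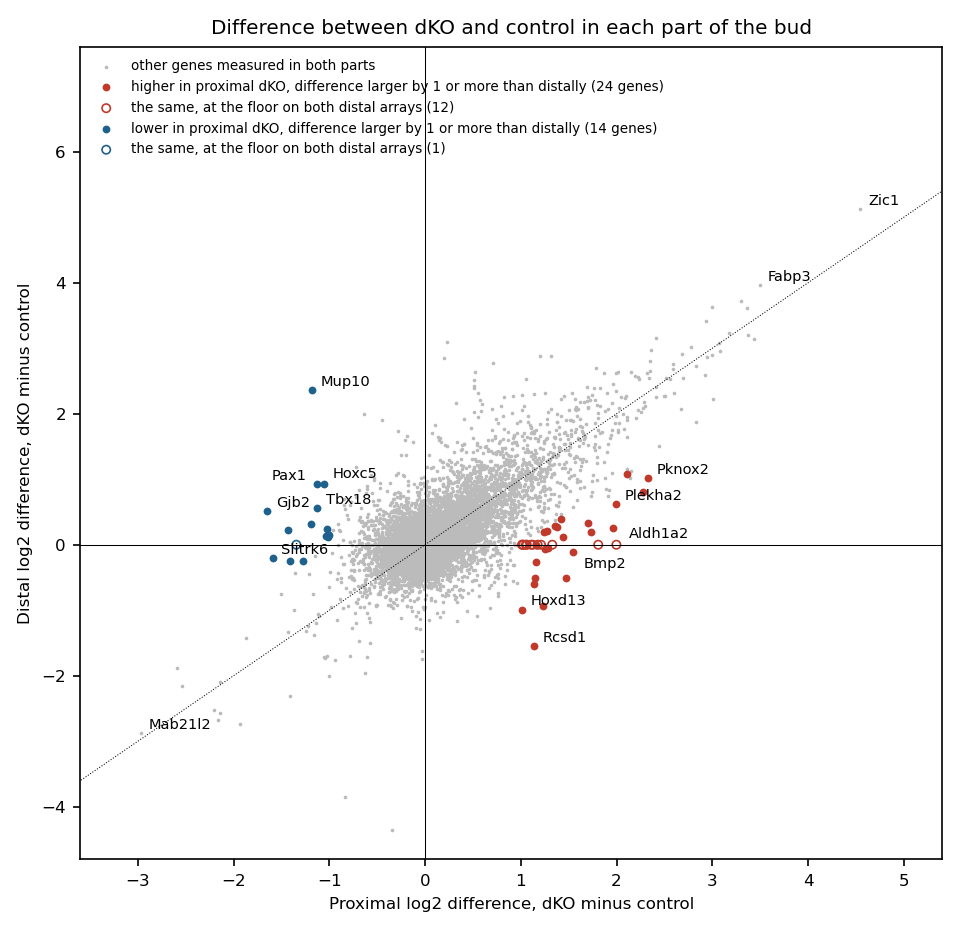
Each point is a gene, with its log2 difference, dKO minus control, in the proximal part (x axis) and in the distal part (y axis); the dotted line marks equal differences. Coloured points are the 36 higher and 15 lower genes that stood apart proximally, of which open points, at the floor on both distal arrays, are drawn at 0 with no measured distal difference. Zic1, Fabp3 and Mab21l2 lie near the line.

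Signalling and patterning genes were among the higher genes that stood apart. Bmp2, a ligand of the BMP pathway made in the apical ridge and the posterior bud, had 261 on the proximal dKO array and 89.7 on the proximal control array, 2.92-fold higher, against 432 and 464 on the distal dKO and distal control arrays. It was the 1 higher gene that kept this pattern under all 7 alternative settings. Dlx5, a homeobox factor of the ridge, had 156 and 55.4 proximally (at least 2.44-fold) and 238 and 246 distally. Hoxd13, the last gene of the HoxD cluster and a factor of the digits, had 2521 and 1247 proximally and 2030.4 and 4035 distally, so it was 2.02-fold higher in the proximal dKO and near 2-fold lower in the distal dKO, at a log2 difference of -0.99. Dlx5 and Hoxd13 each kept the pattern, and the 2-fold difference, in 4 of the 7 settings. For these 3 genes the proximal dKO signal lay between the proximal control and the distal control signals.

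Among other genes of the distal bud few were 2-fold apart. Over all genes 4.11% were higher and 0.371% lower in the proximal dKO. Of 14 apical ridge genes, some of them below the floor, 10 had a higher signal in the proximal dKO. Of the 11 measured Bmp2 and Dlx5 were 2-fold higher, with a list median of 0.28. Fgf8, the defining signal of the ridge, was below the floor on both proximal arrays, and Fgf4 had 26.2 in the dKO and 92.7 in the control. Sp8 (840.1 and 604) and Dlx2 (614 and 433), also ridge factors, were at log2 differences of 0.48 and 0.50. Of 12 measured distal limb genes, Hoxd13 was higher, Hoxd11 and Cyp26b1 lower, and the median was -0.57. Hoxa13, the HoxA relative of Hoxd13, was below the floor on both proximal arrays. The level at which the buds were divided was not analysed here, and its part in these values was not tested.

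Aldh1a2, the enzyme that makes RA in the body wall beside the limb, had 256 on the proximal dKO array and 14.3 on the proximal control array, at least 4.0-fold higher. It was below the floor on both distal arrays, at 62.8 in the dKO and 15.8 in the control, so its distal difference was not measured. The other retinoid genes were mixed: of 13 measured, Rbp4 (1.77) was also higher, Cyp26b1 was lower (-1.93) and Rdh10, which makes the substrate of Aldh1a2, was at 0.74. Over all genes 4.11% were higher and 0.371% lower. Wt1 and Upk3b, which with Aldh1a2 mark the lining of the body cavity, had 281 and 16.4, and 148 and 17.8, on the proximal dKO and control arrays. Of that lining's other markers Msln (13.2 and 2.09), Upk1b (14.1 and 7.28) and Lrrn4 (49.9 and 27.7) were below the floor on both arrays. Krt19 was at 738 and 603. Of the 8 markers 7 had a higher signal in the dKO, those below the floor among them, and Tbx18 was lower. The summed signal of the 8 was 2269 in the dKO and 2366 in the control, of which Tbx18 alone held 769 and 1678. Fewer or more cells of a type and less or more RNA per cell cannot be told apart in such tissue arrays, and the part of body wall cells was not tested.

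Further genes that stood apart in this direction code for membrane, lipid and signalling proteins. Plekha2, an adaptor that binds membrane lipids, had 1305 in the proximal dKO and 327 in the proximal control (3.99-fold), against 1214 and 790.1 distally, and a second probe set gave log2 differences of 1.67 proximally and 0.46 distally. Sel1l3 had 508 and 152 proximally and 587 and 514 distally. Gpat3, an enzyme of triglyceride synthesis, had 249 and 51.9 (at least 3.89-fold) and 133 and 112. Ccbe1, which lymphatic vessels need to grow, had 309.6 and 46.5 (at least 4.84-fold) and 279 and 160.0. Ntrk2, the receptor of the nerve growth factor relative BDNF, had 224 and 62.8 (at least 3.50-fold) and was below the floor on both distal arrays, at 57.0 and 25.8, with no measured distal difference. Pknox2, a TALE homeobox factor related to the Meis genes, had 578 and 115 proximally and 424 and 210.0 distally, so it was higher in both parts but more so proximally.

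Less strong members of this group were close to the threshold. Ndrg1, a gene induced by low oxygen, had 489 and 205 in the proximal dKO and control, against 374 and 393 distally, and its other 2 measured probe sets read log2 differences of 1.12 and 0.74 proximally. Vldlr, a reelin and lipoprotein receptor, had 452 and 177, against 402 and 329. Cirbp, an RNA-binding protein induced by cold, had 199 and 84.8, against 71.0, below the floor, and 145. The platelet chemokine Ppbp had 196 and 88.8, against 180.3 and 257, and Serinc5, a membrane protein, 236 and 106, against 179 and 216. Gata6 (1.01) and Hoxd13 (1.02) were just inside the 2-fold threshold.

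The lower genes that stood apart proximally include factors of the girdle and the proximal limb. Tbx18, a T-box factor of the body wall and proximal limb mesenchyme, had 769 on the proximal dKO array and 1678 on the proximal control array, 2.18-fold lower in the dKO, against 976 and 659.7 distally, where the dKO was the higher one. Its second probe set gave log2 differences of -1.22 proximally and 0.40 distally. Pax1, a factor of the shoulder girdle and the sclerotome, had 271 and 591 proximally, against 113 and 5.76 distally, with the distal control below the floor. Hoxc5 had 597 and 1240.1 proximally, against 605 and 319.5 distally, and its other 2 probe sets were at -0.82 and -0.92 proximally. For all 3 the proximal and distal dKO signals were closer to each other than the proximal and distal control signals were. The proximal control array enters both of these readings, so they are not independent.

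Gjb2, a gap junction protein of epithelia, had the largest proximal fold in this group, with 266 in the proximal dKO and 832 in the proximal control (3.13-fold lower), against 608 and 426 distally. Slitrk6, a transmembrane protein of neurons and inner ear, had 93.4 and 281, against 77.4 and 89.5. Dync1i1, a dynein subunit whose gene lies near Dlx5 and Dlx6 and holds limb enhancers of them, had 144 and 328, against 458 and 369, so it was lower where Dlx5 was higher. Gria2, a glutamate receptor subunit, had 51.7, below the floor, and 185 (at least 2.54-fold lower) and was below the floor on both distal arrays, with no measured distal difference. Other probe sets of Gria2 (-0.41 and 0.01) gave a proximal log2 difference under 2-fold. So did those of Fchsd2 (0.03) and Hmgxb3 (-0.25), which also stood apart. The 0.01 of Gria2 comes from signals of 50.3 in the dKO, below the floor, and 72.6 in the control, so its sign was set by the floors. Tbx18, Gjb2 and Mup10, a major urinary protein gene, kept the pattern under all 7 alternative settings, Dync1i1 and Slitrk6 under 6, and Pax1 and Hoxc5 under 5.

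**Figure D3:**
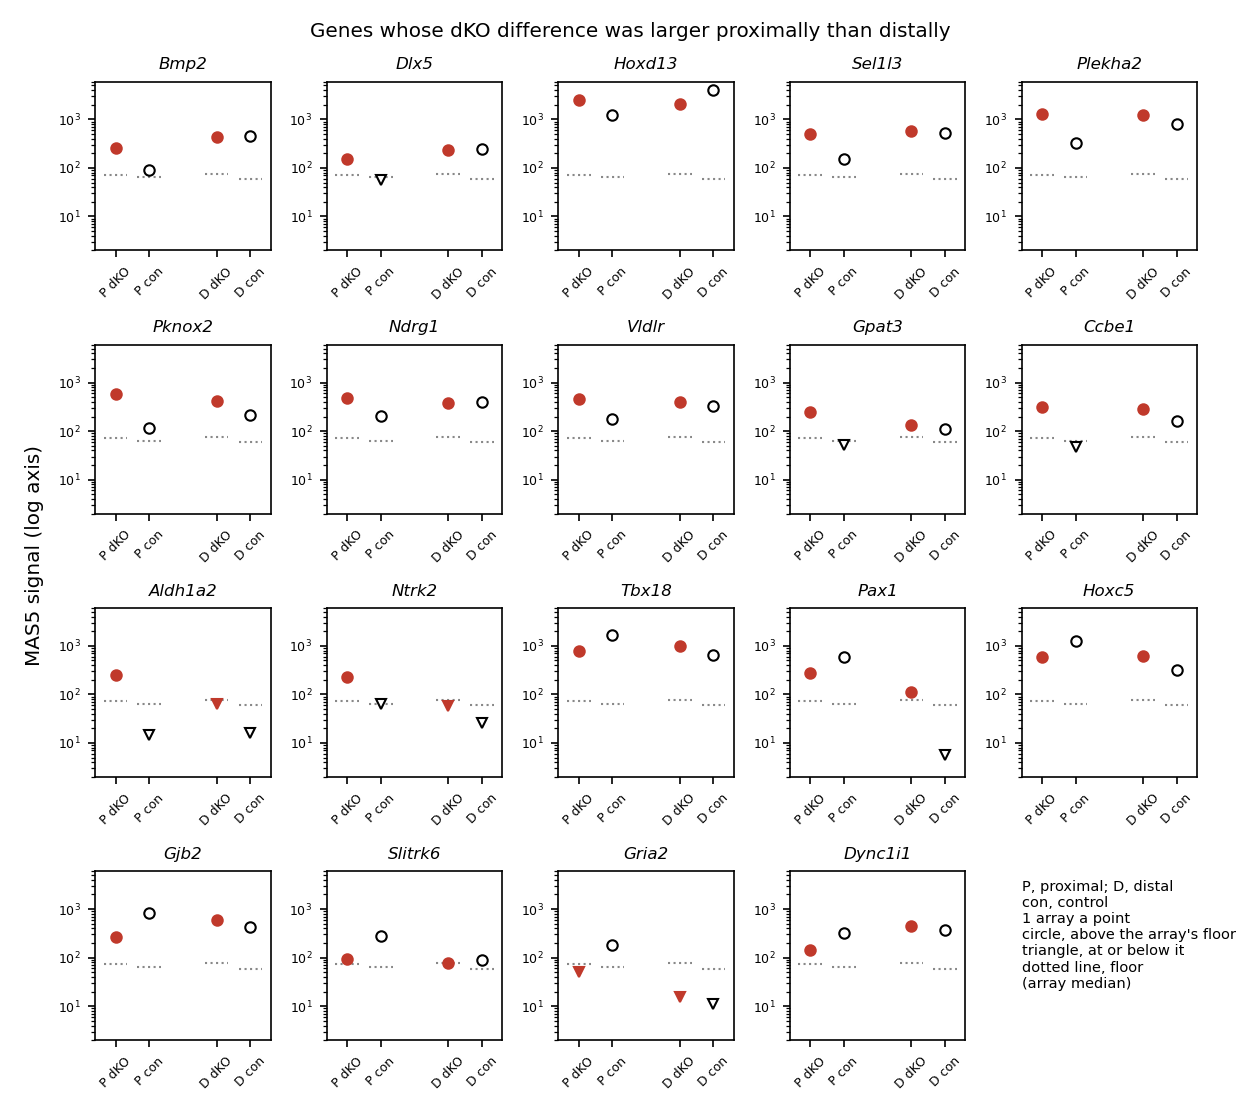
MAS5 signals (log axis) of 19 named genes whose proximal difference stood apart, on the proximal (P) dKO and control and the distal (D) dKO and control arrays, 1 array a point, with triangles for signals at or below the array's floor (dotted). From Bmp2 to Ntrk2 the proximal dKO is above the proximal control, and from Tbx18 to Dync1i1 below it, while the distal pair is closer together or reversed.

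The gene group of the proximal limb and girdle went both ways. Of 12 measured, Pax9 (273 in the dKO and 20.5 in the control, at least 4.26-fold) and Irx2 (211 and 67.6) were higher, and Pax1, Tbx18, Tbx15 (1119 and 2516) and Shox2 (1914 and 4135), a factor needed for the humerus, were lower. Their median was 0.08, and it was -0.11 when arrays were divided by their medians. On the distal arrays 6 of 12 were higher and 1 lower, with a median of 1.09. Over all genes 4.11% were higher and 0.371% lower proximally, and 5.39% and 0.523% distally. Irx3, a factor of the proximal limb, is 1 example: it had 2369.6 and 2018 proximally, against 1367 and 160.4 distally. Meis1 (709 and 614 proximally) and Meis2 (3456 and 2941), factors of the proximal limb of which the study's title names Meis2, were at log2 differences of 0.21 and 0.23 proximally and 1.53 and 1.03 distally. Their relative Meis3, with 309 and 108, was the 1 of 6 Meis and Pbx genes that was 2-fold higher proximally.

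Signalling genes held few 2-fold members, where 4.11% of all genes were higher and 0.371% lower. All 9 FGF response genes had a lower signal in the proximal dKO, with a median log2 difference of -0.36, and Spry1, a feedback inhibitor of FGF signalling, at 110.0 and 242, was the 1 that was 2-fold lower. Of 9 SHH pathway and posterior genes Gli1, a target of SHH, was 2-fold lower, at 114 and 236, while 3 of the 10 on the array had a higher signal in the dKO. The median of -0.42 was -0.16 with the floor doubled and -0.12 with probe sets averaged. Neither Spry1 nor Gli1 was 2-fold lower with the floor doubled or under log2(signal + 50). Of 12 BMP genes Bmp2 and Smad7, an inhibitor of the pathway, were higher, and the median was -0.03, which became 0.11 when the probe sets of a gene were averaged. Smad7 had 6009.7 and 2328 on 1 probe set but 700.8 and 719.7 on its other, so its probe sets disagree. Of 17 WNT genes Dkk3 (324 and 131), a secreted WNT modulator, was 2-fold higher.

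Several gene groups showed no 2-fold member. None of the 20 PRC1 subunits was 2-fold apart, where Bmi1, at 4474 and 2322, was highest at 0.95, and none of the 10 PRC2 subunits was. The same held for 16 proliferation genes and 14 measured immediate early and heat shock genes. Nor was any of 12 cell cycle inhibitor and p53 target genes, but their best known Polycomb target, Cdkn2a, had 77.3 in the dKO and 3.01 in the control, which gives only a bound of at least 1.21-fold, and under log2(signal + 50) 1 of the list was 2-fold higher. These lists cover chosen members only. Outside the immediate early and heat shock list, the chaperone genes Dnaja4 (419 and 177), Hspa4l (237 and 103) and Hspa12a (354 and 133) were 2-fold or more higher. Of 3 measured germline genes, which variant PRC1 silences, Tdrkh (247 and 95.5) and Dmc1 (144 and 36.4) were higher. Of the 2 above the floor in the control 1 was higher, against 2.81% of all such genes. Dmc1 was measured on the dKO array alone, where 30.5% of all such genes were higher. The third measured gene was not 2-fold apart, and the others of the 33 on the array were below the floor on both arrays.

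**Figure D4:**
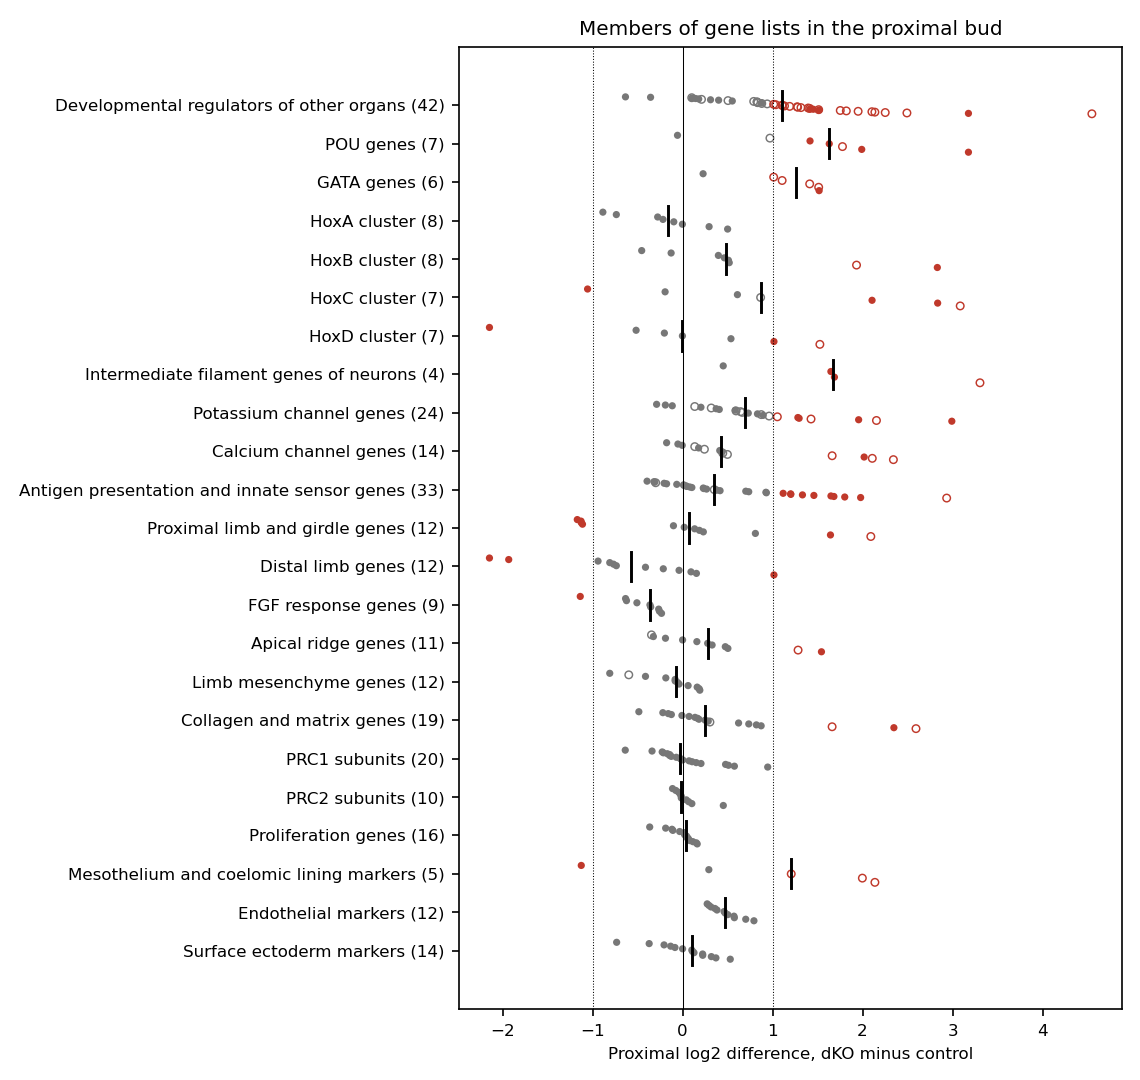
Proximal log2 difference, dKO minus control, of each measured member (number in brackets) of 23 gene lists; open points are bounds at a floor, red points are 2-fold or more, and black bars are list medians. Developmental regulators of other organs reach to the right, most of them as bounds, while PRC2 subunits and proliferation genes stay near 0.

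Markers of other cell types that a dissected bud holds were mixed. Their counts stand beside 4.11% of all genes higher and 0.371% lower. All 12 endothelial markers had a higher signal in the dKO, none by 2-fold. Their median was 0.47, against 0.02 over all genes, and their summed signals were 7861 in the dKO and 5756 in the control. Some endothelial genes outside this list, picked after their values were seen, were just past 2-fold higher. Among them were Erg (218 and 106), Fgd5 (860 and 407) and Acvrl1 (242 and 118). Second probe sets of Erg and Acvrl1 were under 2-fold, at log2 differences of 0.68 and 0.83. Erythroid markers summed to 43462 and 36779, with Epor (275 and 95.7) 2-fold higher. The 15 surface ectoderm markers summed to 13666 and 12245, with Trp63 at 611 and 611, and the 11 macrophage markers to 1041 and 951, with Cx3cr1 at 17.8 and 18.2, below the floor. Muscle precursor markers summed to 5736 and 4065, with Pax7 (226 and 33.1) higher by a log2 difference of at least 1.82 and Myod1 and Myog below the floor on both arrays. Of 7 measured somite and body wall markers, which share Pax1, Pax9 and Tbx18 with the girdle genes, Pax9 and Foxc2 (621 and 207) were higher and Pax1, Tbx18 and Meox2 (519 and 1069) lower, and the list summed to 3800.0 and 4634. Their part in the differences was not tested.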

How the data were processed

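RNA of each part of the bud was hybridised, per the labels' protocols as biotin-labelled cRNA, to 1 array per group. The deposited values are the authors' MAS5 signal intensity, per the submitters' processing notes, on a linear scale with a trimmed mean near 500 (499.9 on the proximal dKO array). No MAS5 version is given in the sources used here; detection calls were not used. The number of arrays limits the precision.

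Of 45101 probe sets, 64 controls were left out. The platform annotation names 1 symbol for 34958, several for 932, and none is listed for 9211. For 34754, the gene ID matched RefSeq, which altered 0 symbols. Where a gene has several probe sets, the one brightest on average (log2, 6 arrays) was used. Signals below the array median were set to it before log2, and genes above it on at least 1 of 2 arrays were compared and counted at 2-fold (a log2 difference of 1). Single-array differences have no test. The members and lists were chosen with earlier results of these data known, and 12 of 45 lists after the values were seen. Genes were named by size of difference (the 12 largest in each direction with both arrays measured, 8 bounds and 15 apart from distal), with up to 4 per list, beside Ring1, Rnf2, Meis1, Meis2 and genes opposite in the 2 parts; other members of a list are named where its description needs them, chosen after their values were seen. The 7 alternatives changed the floor, scaling or probe set. Counting was tested on simulated data. Python 3.11.15 with pandas 2.3.3, numpy 2.4.6 and matplotlib 3.10.9 was used.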

Additional observations from a re-analysis of the deposited data

Results flagged for a closer look

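Of the genes measured in both parts, 2 were 2-fold or more apart in opposite directions, and the difference between the parts was not tested. Rcsd1, a regulator of actin capping, had 481 in the proximal dKO and 218 in the proximal control, a log2 difference of 1.14, and 460.3 in the distal dKO and 1344 in the distal control, a difference of -1.55. Mup10, a major urinary protein gene with many close copies, had 692 and 1569 proximally, a difference of -1.18, and 907 and 177 distally, a difference of 2.36. Each rests on 1 probe set and 4 single arrays.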

How the results depend on the processing

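Each count was recomputed under 7 alternatives. With the floor at 2 times the array median, 270 genes were higher and 27 lower proximally, and 12 and 9 stood apart from distal. In that setting 186 were higher in both parts, and 26 members of the lists were 2-fold or more higher, against 53 as reported. The count of list members leaves out the 12 lists made after the values were seen. With a fixed floor of 100, 18 higher genes stood apart and 224 were higher in both parts. With arrays divided by their medians, which moved the median of all genes by -0.19, 69 genes were lower, 186 were higher in both parts and 32 lower in both. With the mean over all probe sets of a gene, 278 were higher, 17 higher and 9 lower genes stood apart, and 207 were higher in both parts. The remaining values of these 7 counts stayed within 1.5 times. Counts of genes apart distally and of single lists moved further in places, among them 5 GATA factors against 3 with quantile normalization and 10 antigen presentation and sensor genes against 6 under log2(signal + 50). Of 834 values of 120 named genes under these settings, 736 stayed on their side of 2-fold, 97 went under it, 1 went past it and 0 reversed. Of the 36 higher genes that stood apart, 13 did so in 5 or more settings, and of the 15 lower ones 10 did. Divided by array medians, the medians of 9 lists near 0 changed sign, among them retinoid, WNT, cartilage, imprinted, proliferation and surface ectoderm genes. Leaving out an array was not possible. No paired analysis was possible because each group has 1 array. Signal near the floor limits the dim genes: with none above it in the control, only a bound is known.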
